A study of Bos taurus with 6 samples.

Results

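The genes described here are those by which a cell shows peptides from its own cytosol on MHC class I, measured in cells of the cow (Bos taurus) endometrium sorted into a side population (SP) and a main population (MP). The members are the rows of the deposited tables whose gene symbol is NLRC5, B2M, BOLA, TAP1, TAP2, TAPBP, PSMB8, PSMB9, PSMB10 or ERAP1. They come to 13 of 34733 named rows, since BOLA, the symbol of the bovine class I heavy chain, labels 4 rows and each other symbol 1. NLRC5 was already known from these data as one of the genes most raised in SP when the members were chosen, so the SP and MP values of all members are given as a description, with no test of the choice. Of the 13 rows 12 reached the level needed for the comparison, 1 FPKM or more in 3 or more of all 6 libraries, and 1 BOLA row was listed at 0 in all libraries.

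RNA was measured in 3 SP and 3 MP libraries by sequencing of poly(A) RNA. Both populations came from healthy luteal phase uteri of slaughtered cows, from endometrium between the caruncles freed of its luminal epithelium and digested with collagenase. The DNA dye Hoechst 33342 was given to the cells. SP cells were those that pumped the dye out, MP cells those that kept it, and part of the cells was stained along with verapamil, an inhibitor of dye pumping. Propidium iodide excluded dead cells, and no antibody gate is described in the labels. The labels do not say that replicates came from separate animals or whether animals were pooled, so any p-value measures only the spread between these libraries, which may be technical.

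In the class I pathway the proteasome cuts cytosolic proteins into peptides, and interferon exchanges its catalytic subunits for the immunoproteasome subunits PSMB8, PSMB9 and PSMB10. The transporter TAP, a pair of TAP1 and TAP2, carries the peptides into the endoplasmic reticulum, where ERAP1 trims them and tapasin, the product of TAPBP, helps to load them on a heavy chain paired with beta-2 microglobulin (B2M). NLRC5 acts in the nucleus as the class I transactivator: in human and mouse cells it raises transcription of heavy chain genes, B2M, TAP1 and PSMB9 through the promoter elements that the class II transactivator CIITA also uses. In the uterus class I levels matter for the contact between mother and conceptus, and interferon tau from the early conceptus is known to act on the endometrium of ruminants.

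The values are FPKM (fragments per kilobase of transcript and per mapped fragments of the library, in the usual scale), so levels can be set side by side between genes. Relative to SP replicate 1 the depth, roughly estimated from the lowest values, was 1.61 and 1.84 in SP replicates 2 and 3 and 2.34, 3.21 and 2.01 in MP replicates 1 to 3, and apart from NLRC5 in MP all tested members stood above 2 FPKM. Of 12127 genes tested with limma on log2(FPKM + 1), 39.2% passed an adjusted p of 0.05, with 2490 higher and 2269 lower in SP; 52.3% of the calls were thus higher in SP, against 68.0% when FPKM was rescaled to the same sum in each library. The labelled stromal preparation held several cell types. Endothelial markers were higher in SP in 18 of 19, all but CLDN5 (summed level 2319 to 3591 FPKM in SP and 271 to 1384 FPKM in MP), stromal fibroblast markers lower in 12 of 14 (304 to 514 FPKM in SP and 3264 to 12154 FPKM in MP), and epithelial markers passed in 0 of 10 tested, also 0 at an unadjusted p under 0.05 (218 to 1959 FPKM in SP and 1101 to 5152 FPKM in MP). Leukocyte markers were mostly lower in SP. The myeloid ones were so in 10 of 12 tested, all but CD14 and CD68 (123 to 146 FPKM in SP and 683 to 1235 FPKM in MP). CD14 had a higher average in SP (97.6 FPKM against 63.7 FPKM in MP), and CD14 and CD68 held most of the myeloid sum in SP. Those of T and NK cells were lower in 7 of 7 tested (0.884 to 4.03 FPKM in SP and 84.5 to 263 FPKM in MP, CD8B listed at 0 in every SP library). Of these tested markers 5 myeloid, 6 T and NK cell and 2 fibroblast ones stayed below 1 FPKM throughout SP, and passing the filter on low values thus set their direction. In bulk RNA, fewer cells of a type and less RNA per cell cannot be told apart.

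Across the members the transactivator, the TAP transporter and tapasin stood higher in SP, the heavy chain and B2M leaned the same way with overlapping values, and the immunoproteasome subunits did not. Of the 12 tested rows 4 passed in limma as higher in SP (NLRC5, TAP1, TAPBP and 1 BOLA row), beside 20.5% of all genes tested. As lower in SP 0 passed, beside 18.7% of all genes, with 1 (PSMB10) at an unadjusted p under 0.05. The 3 SP values all lay above the 3 MP values in 4 rows (NLRC5, TAP1, TAP2 and TAPBP; 28.3% of all genes) and all below them in 1 (PSMB10; 26.5% of all genes), together 5 of 12 beside 54.8%. Since the members were chosen with this comparison known, nothing is read from these counts. The median log2 fold change of the 12 rows was 0.92, and that of all genes tested 0.01. Without SP replicate 1 only NLRC5 passed, without SP replicate 2, MP replicate 1 or MP replicate 2 there were 2 calls, and without any filter on low values 1.

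**Figure D1:**
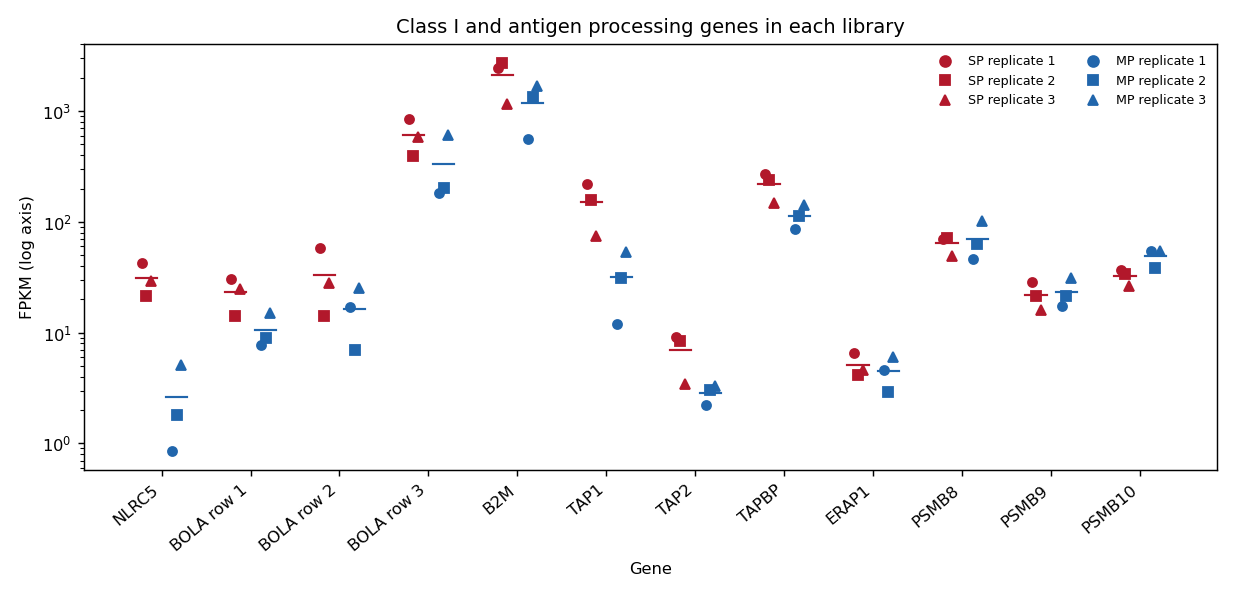
FPKM (log axis) of the 12 tested rows in each library, SP (red) left of MP (blue) for each gene, with a horizontal line at the mean of 3 libraries and symbols for the replicate. The NLRC5 values of SP (21.4 to 42.4 FPKM) lie far above those of MP (0.861 to 5.15 FPKM), whereas the PSMB8 and PSMB9 values of the populations cover each other.

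NLRC5 (chromosome 18, 25009799 to 25103235; loci here are those of the files, introns included, in build ARS-UCD1.2, counted from 1) had 42.4, 21.4 and 29.0 FPKM in SP replicates 1 to 3, against 0.861, 1.80 and 5.15 FPKM in MP replicates 1 to 3. The lowest SP library stood above the highest MP library by a wide margin, and MP replicate 3 was the highest of MP. The average ± SD of 3 libraries was 30.9 ± 10.6 FPKM for SP and 2.60 ± 2.25 FPKM for MP, with a log2 fold change of 3.28 ± 0.46 (SE), the 11th highest of all genes tested. Among the 12 member rows NLRC5 ranked 8th by mean level in SP and last in MP. Its log2 fold change stayed between 2.89 and 3.81 in the 14 alternative settings and passed in each of them. These settings reuse the libraries from which NLRC5 was already known as raised in SP. Its rank and these passes are thus a description and no separate support.

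The heavy chain rows were led by 1 locus. The BOLA row at chromosome 23, 28720499 to 28724353 (row 3 in the plots), had 848, 396 and 585 FPKM in SP replicates 1 to 3, against 183, 202 and 614 FPKM in MP replicates 1 to 3. MP replicate 3 lay above SP replicates 2 and 3, so the populations overlapped, while MP replicates 1 and 2 lay below all SP libraries. The log2 fold change was 1.04 ± 0.50 (SE; 95% interval −0.12 to 2.19), which did not pass, but it passed without MP replicate 3 (1.59) and with FPKM rescaled to the same sum in each library (1.26). This locus held 90.5% to 93.4% of the summed FPKM of the BOLA rows in SP and 88.1% to 93.9% in MP.

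The other BOLA rows were far lower. Row 1 (chromosome 23, 27829715 to 27913516) had 30.8, 14.1 and 24.5 FPKM in SP, against 7.72, 8.99 and 14.9 FPKM in MP, and overlapped in that MP replicate 3 lay just above SP replicate 2. Its log2 fold change of 1.05 ± 0.35 (SE) passed narrowly, and it did not pass without SP replicate 1 (0.82), SP replicate 3 (0.98), MP replicate 1 (0.87) or MP replicate 2 (0.97), nor with log2(FPKM + 0.1) (1.11), no filter on low values (1.05) or quantile normalization (0.98). Its locus is listed with the same bounds as those of MIC1 and of a further class I row spelled BoLA, so reads of these may not be told apart. Row 2 (chromosome 23, 27943375 to 27950488) had 57.8, 14.1 and 27.8 FPKM in SP, against 17.0, 6.97 and 25.2 FPKM in MP, with overlap and a log2 fold change of 0.92 ± 0.58 (SE) that did not pass. The row on chromosome X (26285887 to 26286316) was listed at 0 throughout. Class I heavy chain genes are near-identical and highly variable between animals, so the split of reads among rows is uncertain. With the BOLA rows added up to 1 row, an alternative chosen after seeing the data, the log2 fold change was 1.03 and did not pass.

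Other heavy chain rows, outside the symbol BOLA, also overlapped between the populations. JSP.1, another class I heavy chain gene of cattle, had 650, 130 and 163 FPKM in SP, against 93.1, 67.5 and 166 FPKM in MP, and was highest in SP replicate 1 by far. BOLA-NC1, a non-classical class I gene, had 87.5, 24.2 and 70.9 FPKM in SP, against 34.6, 10.6 and 65.0 FPKM in MP. The row BoLA had 154, 66.0 and 51.4 FPKM in SP, against 35.4, 45.4 and 84.3 FPKM in MP. None of the 3 passed (limma adjusted p = 0.143, 0.347 and 0.301).

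B2M (chromosome 10, 103095452 to 103110775), the light chain that all class I molecules share, was the most abundant member in both populations. It had 2425, 2698 and 1169 FPKM in SP replicates 1 to 3, against 565, 1344 and 1671 FPKM in MP replicates 1 to 3. SP replicate 3 lay below MP replicates 2 and 3, so the populations overlapped. The log2 fold change was 0.86 ± 0.48 (SE; 95% interval −0.25 to 1.98) and did not pass. The ratio of B2M to BOLA row 3 was 2.86, 6.81 and 2.00 in SP and 3.09, 6.66 and 2.72 in MP, alike in both populations and high in replicate 2 of each.

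The TAP transporter subunits were both above MP in every SP library, by unequal amounts. TAP1 (chromosome 23, 7177596 to 7193346) had 221, 157 and 73.8 FPKM in SP, against 11.9, 31.2 and 53.2 FPKM in MP. SP replicate 3 and MP replicate 3 came closest to each other. The average ± SD of 3 libraries was 151 ± 73.8 FPKM for SP and 32.1 ± 20.7 FPKM for MP, with a log2 fold change of 2.29 ± 0.58 (SE). It did not pass without SP replicate 1 (1.94) or SP replicate 2 (2.19), or without any filter on low values (2.29).

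TAP2 (chromosome 23, 7138820 to 7146579) had 9.06, 8.32 and 3.46 FPKM in SP, against 2.24, 3.03 and 3.30 FPKM in MP. The gap between the lowest SP and the highest MP library was narrow, and SP replicate 3 was again the low one. Its log2 fold change of 0.97 ± 0.35 (SE) did not pass, but it did without SP replicate 3 (1.34) and under both rescalings of FPKM (1.18 and 1.10). TAP1 exceeded TAP2 by 24.4, 18.9 and 21.3 times in SP and by 5.32, 10.3 and 16.1 times in MP, a ratio that did not overlap between the populations.

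TAPBP (chromosome 23, 7473583 to 7483259), the gene of tapasin, had 272, 238 and 149 FPKM in SP, against 87.0, 114 and 141 FPKM in MP. All SP libraries lay above all MP libraries, with replicate 3 of each population again nearest to the other. The average ± SD of 3 libraries was 219 ± 63.4 FPKM for SP and 114 ± 26.7 FPKM for MP, with a log2 fold change of 0.92 ± 0.30 (SE). It did not pass without SP replicates 1 or 2 (0.75 and 0.84), without MP replicates 1 or 2 (0.75 and 0.94), with the replicate number as a block, or without any filter.

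ERAP1 (chromosome 7, 96034228 to 96204163) had 6.51, 4.17 and 4.64 FPKM in SP, against 4.61, 2.89 and 6.06 FPKM in MP. The populations covered the same range, and the log2 fold change was 0.17 ± 0.29 (SE; 95% interval −0.51 to 0.85). Its listed locus is shared with CAST, the calpastatin gene. The ratio of ERAP1 to ERAP2, its sister aminopeptidase, was 1.52, 0.620 and 1.70 in SP and 1.70, 0.613 and 1.52 in MP. Replicate 2 of each population thus had more ERAP2 than ERAP1, and the other 4 libraries the reverse.

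The immunoproteasome subunits, which replace the constitutive catalytic subunits PSMB5, PSMB6 and PSMB7, did not stand higher in SP. PSMB8 (chromosome 23, 7173032 to 7177044) had 70.5, 71.7 and 49.7 FPKM in SP, against 46.4, 62.6 and 101 FPKM in MP. PSMB9 (chromosome 23, 7177596 to 7193346) had 28.4, 21.5 and 15.9 FPKM in SP, against 17.5, 21.5 and 31.2 FPKM in MP. In both genes the MP values spanned the whole range of SP or nearly so, and the log2 fold changes were −0.07 ± 0.32 and −0.09 ± 0.31 (SE; 95% intervals −0.82 to 0.68 and −0.80 to 0.62).

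PSMB10 (chromosome 18, 35417746 to 35425011) had 36.8, 33.7 and 26.5 FPKM in SP, against 54.2, 38.7 and 55.0 FPKM in MP. Every SP library lay below every MP library, by a small gap between SP replicate 1 and MP replicate 2. The log2 fold change of −0.59 ± 0.25 (SE) did not pass in the main fit or any of the alternatives, over which it ranged from −0.75 to −0.37. The listed locus of PSMB10 is shared with LCAT, whose own values overlapped (29.3, 14.1 and 17.3 FPKM in SP and 23.7, 13.4 and 22.0 FPKM in MP). Leukocytes are rich in immunoproteasome, and their summed markers were lower in SP as given above; the part of leukocytes in these values was not tested.

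**Figure D2:**
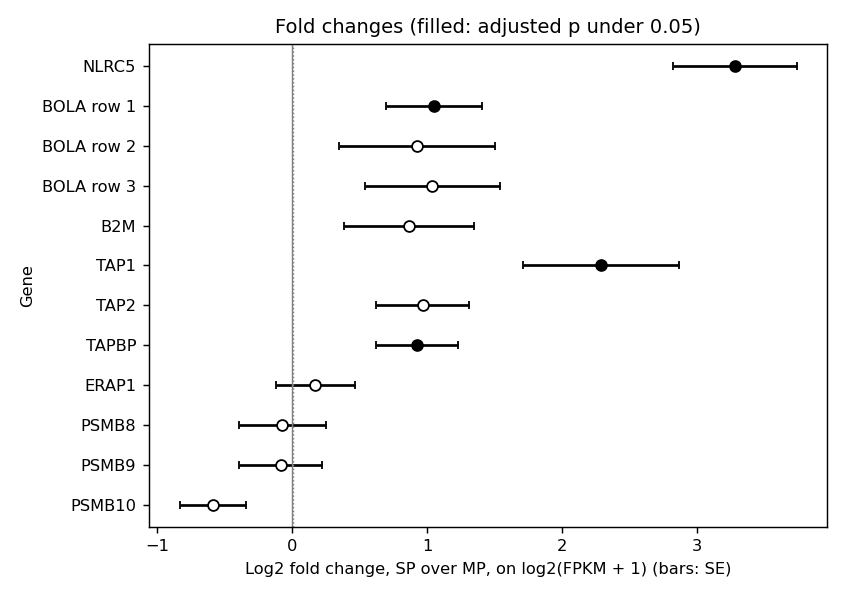
Log2 fold change of SP over MP on the log2(FPKM + 1) scale for each tested row, with the SE as bars and filled points for rows that passed an adjusted p of 0.05; the solid line is 0 and the dotted line the median of all genes tested. NLRC5 and TAP1 lie farthest to the right (3.28 and 2.29), most heavy chain and loading genes near 1, and the immunoproteasome subunits at or below 0.

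Ratios within a library do not depend on its scaling, and they show the unequal behaviour of neighbours. TAP1 and PSMB9 stand next to each other in the MHC and are listed in the files with 1 shared locus, so their reads may not be told apart fully. The ratio of TAP1 to PSMB9 was 7.79, 7.30 and 4.65 in SP and 0.681, 1.45 and 1.71 in MP. It did not overlap, as TAP1 was above PSMB9 several times over in each SP library and below it in MP replicate 1. TAP1 over PSMB8 was 3.14, 2.19 and 1.48 in SP and 0.257, 0.498 and 0.527 in MP, again without overlap.

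Each immunoproteasome subunit was also set against the constitutive subunit it replaces. PSMB8 over PSMB5 was 1.48, 1.25 and 1.18 in SP and 0.717, 0.922 and 1.23 in MP, with MP replicate 3 inside the SP range. PSMB9 over PSMB6 was 0.310, 0.179 and 0.177 in SP and 0.128, 0.152 and 0.277 in MP. PSMB10 over PSMB7 was 0.772, 0.532 and 0.527 in SP and 0.668, 0.418 and 0.751 in MP. All these ratios overlapped between the populations, and SP replicate 1 was the highest library in each.

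**Figure D3:**
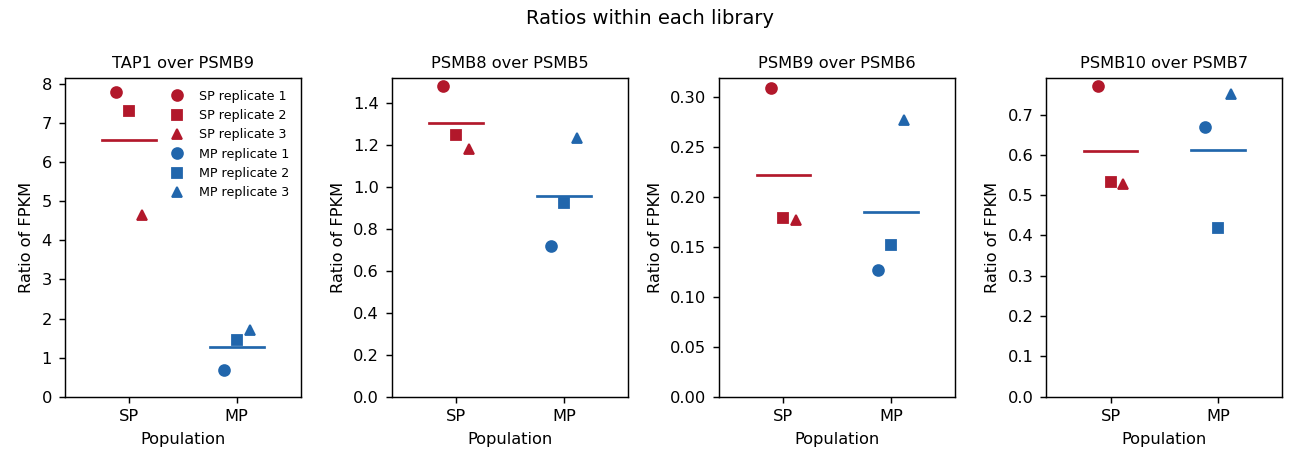
Ratios of FPKM within each library, SP (red) left of MP (blue), with a line at the mean of 3 libraries and symbols for the replicate. TAP1 over PSMB9 separates SP (4.65 to 7.79) from MP (0.681 to 1.71), and the ratios of immunoproteasome to constitutive subunits overlap.

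Levels kept much the same order in both populations. In SP the order by mean ran B2M, BOLA row 3, TAPBP, TAP1, PSMB8, BOLA row 2, PSMB10, NLRC5, BOLA row 1, PSMB9, TAP2 and ERAP1. Neighbours overlapped in their library values except at the steps after B2M, BOLA row 3, TAP1 and PSMB9. In MP it ran B2M, BOLA row 3, TAPBP, PSMB8, PSMB10, TAP1, PSMB9, BOLA row 2, BOLA row 1, ERAP1, TAP2 and NLRC5, with no overlap only at the steps after BOLA row 3 and after BOLA row 1. The chief differences between the orders were the place of NLRC5, 8th in SP and last in MP, and of TAP1, above PSMB8 and PSMB10 in SP and below them in MP. The 13 rows together took 0.465%, 0.492% and 0.333% of all FPKM in SP and 0.124%, 0.213% and 0.282% in MP.

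Libraries of 1 population differed in a repeated way. SP replicate 3 was the lowest SP library for B2M, TAP1, TAP2, TAPBP, PSMB8, PSMB9 and PSMB10, but not for NLRC5 or the BOLA rows, which were lowest in SP replicate 2. MP replicate 3 was the highest MP library in all 12 tested rows. The FPKM sum over all named rows was likewise largest in MP replicate 3 and smallest in SP replicate 3. It was 870311, 747321 and 647501 in SP replicates 1 to 3 and 805915, 863631 and 963629 in MP replicates 1 to 3. The values here are not rescaled to the same sum, so the order of libraries depends on this scale too. Within MP the endothelial markers, too, peaked in replicate 3 (summed 271, 456 and 1384 FPKM in MP replicates 1 to 3). So did the sums of myeloid markers (683, 1011 and 1235 FPKM) and of T and NK cell markers (84.5, 233 and 263 FPKM). The medians of both leukocyte lists over tested markers, however, were highest in MP replicate 2. They were 35.1, 50.1 and 45.5 FPKM for myeloid markers and 4.25, 9.52 and 4.93 FPKM for T and NK cell markers. GZMB alone gave 52.2, 162 and 223 FPKM of the T and NK cell sum. The list of interferon stimulated genes was also chosen with earlier results of these data known, so nothing is read from its count. Of 22 interferon stimulated genes tested 18 were higher in SP, beside 20.5% of all genes tested. For OAS2, below 1 FPKM in every MP library, passing the filter on low values set this direction. Their median level was 98.1, 55.0 and 30.6 FPKM in SP replicates 1 to 3 and 7.54, 18.6 and 14.2 FPKM in MP replicates 1 to 3, so SP replicate 3 was the lowest SP library and still above every MP library. Their summed level was 22322, 18771 and 4380 FPKM in SP replicates 1 to 3 and 1639, 4745 and 3918 FPKM in MP replicates 1 to 3. ISG15, which did not pass, made up most of this sum, with 15532, 12806 and 2722 FPKM in SP and 1126, 3505 and 2780 FPKM in MP. IFI6, which did not pass either, had a lower average in SP (202 FPKM against 245 FPKM in MP). The part of these cell types and of the interferon stimulated genes in the member values was not tested.

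**Figure D4:**
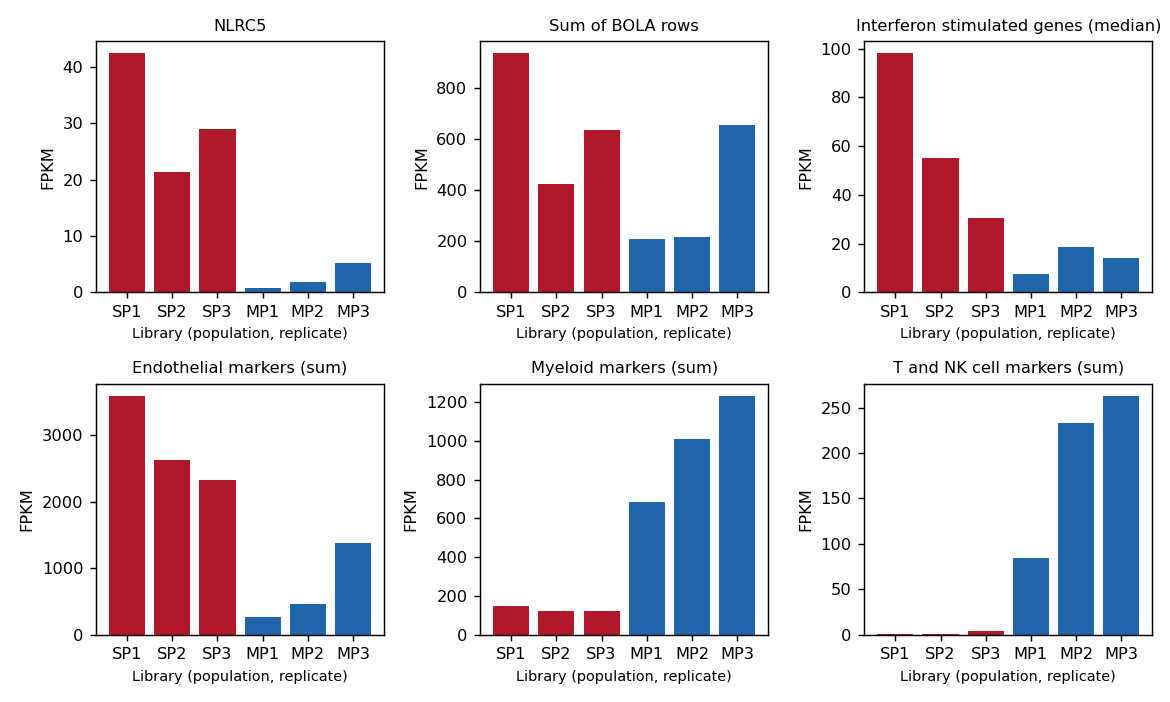
Bars give FPKM in each library (SP red, MP blue, number for the replicate) for NLRC5, the sum of the BOLA rows, the median of the interferon stimulated genes and the summed levels of 3 marker lists. NLRC5, the interferon stimulated gene median and the endothelial marker sum are higher in every SP library than in any MP library, the leukocyte marker sums the reverse, and the BOLA sum in MP replicate 3 (654 FPKM) exceeds that of SP replicates 2 and 3 (424 and 637 FPKM).

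The genes whose pattern over the 6 libraries lay nearest to that of NLRC5 were TNFRSF10D, ABCB1, DOC2B, ARAP3 and GNAT1, with a root mean square difference of centred log2(FPKM + 1) values of 0.14, 0.17, 0.22, 0.24 and 0.29. ABCB1, the drug pump P-glycoprotein and so related to the property the cells were sorted on, had 111, 54.1 and 78.3 FPKM in SP, against 3.76, 4.50 and 16.8 FPKM in MP, and like NLRC5 was lowest in replicate 2 of SP and highest in replicate 3 of MP. TNFRSF10D, a decoy receptor of the death ligand TRAIL, had 232, 95.8 and 135 FPKM in SP, against 8.09, 10.3 and 29.3 FPKM in MP. Among the members TAP1 was nearest, with a difference of 0.70, as the 249th gene in order. BOLA row 3 followed at 1.13, BOLA row 1 at 1.15, TAPBP at 1.26, TAP2 at 1.30, and BOLA row 2 and B2M at 1.32. PSMB10 was farthest at 2.01. The values were centred but not scaled, so the difference also grows where the size of the fold change differs.

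The rest of the pathway was described by a list of 46 other genes in 5 roles, of which 42 were tested. In limma 12 were higher in SP (beside 20.5% of all genes) and 1 lower (beside 18.7%), 29 did not pass, and the median log2 fold change was 0.28. The number of higher calls was 2, 6 and 4 without SP replicates 1, 2 and 3 and 4, 4 and 8 without MP replicates 1, 2 and 3, and 4 with no filter on low values. Of the 12, IRF1 and TAPBPL passed in all 14 alternatives, and each of the other 10 was lost without at least 1 library.

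Transcription factors of the class I and class II promoters held most of these calls. Of 13 tested 8 were higher, beside 20.5% of all genes, with none lower and a median of 0.72. The list was chosen with earlier results of these data known, so nothing is read from this count. IRF1, the interferon regulatory factor that binds class I promoters, had 835, 468 and 276 FPKM in SP, against 102, 65.6 and 166 FPKM in MP. The populations did not overlap, and the log2 fold change was 2.19 ± 0.47 (SE; limma adjusted p = 0.0112).

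The other factors moved less or near the threshold. The NF-kappaB subunits NFKB1 and RELA, which bind the enhancer of class I genes, had log2 fold changes of 1.51 and 0.97 (limma adjusted p = 0.0487 and 0.0489), and the NFKB1 values overlapped between the populations. Of the complex that NLRC5 and CIITA dock on, RFX5, NFYB and CREB1 passed (0.72, 0.69 and 1.28; limma adjusted p = 0.0367, 0.048 and 0.0185), whereas RFXAP, RFXANK, NFYA and NFYC did not (−0.06, −0.03, 0.18 and −0.19). CIITA itself, the class II transactivator, had 1.98, 2.77 and 1.61 FPKM in SP, against 0.106, 0.359 and 1.51 FPKM in MP (0.99, limma adjusted p = 0.0474). With the replicate number as a block, NFYB, CIITA and RELA did not pass (limma adjusted p = 0.0508, 0.0625 and 0.0841). MP replicate 3 came close to the SP libraries in CIITA, as it did in TAP1.

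Class I-like chains went separate ways, with 6 of 10 listed genes tested. MIC1, a relative of the human stress ligands MICA and MICB, had 60.1, 8.45 and 15.8 FPKM in SP, against 4.33, 4.68 and 5.42 FPKM in MP. SP replicate 1 was far above the rest, and the log2 fold change was 1.88 ± 0.61 (limma adjusted p = 0.042), or 1.12 without that library (limma adjusted p = 0.0508). CD1E, a lipid antigen protein of dendritic cells, was listed at 0 in SP replicates 1 and 2, with 0.176 FPKM in SP replicate 3, against 4.34, 12.4 and 2.14 FPKM in MP. It fell in SP (limma adjusted p = 0.00741), a direction that the filter on low values fixed. FCGRT, the neonatal Fc receptor chain, and MR1, which presents vitamin metabolites, did not pass (−0.20 and −0.14).

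Among peptide loading proteins only TAPBPL passed, the tapasin relative TAPBPR that edits peptides outside the loading complex. It had 17.4, 17.2 and 15.4 FPKM in SP, against 8.48, 7.34 and 8.06 FPKM in MP, with little spread in either population and no overlap. The log2 fold change was 0.98 ± 0.21 (SE; limma adjusted p = 0.0103). The chaperones CALR, CANX and PDIA3 of the loading complex had 0.39, 0.18 and 0.54 and did not pass.

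Of 8 other peptidases TPP2, a large cytosolic peptidase, passed (1.13 ± 0.29 SE; limma adjusted p = 0.0205), and LAP3, ERAP2, LNPEP, NPEPPS, THOP1, NRDC and BLMH did not. Of 8 proteasome partners PSME4, the activator PA200, passed (0.85 ± 0.28 SE; limma adjusted p = 0.0436). The interferon induced activator subunits PSME1 and PSME2 had −0.14 and −0.10 and, as PSMB8 and PSMB9, did not pass. The constitutive subunits PSMB5, PSMB6 and PSMB7 had −0.54, −0.38 and −0.61 and did not pass (limma adjusted p = 0.0909, 0.212 and 0.0615).

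**Figure D5:**
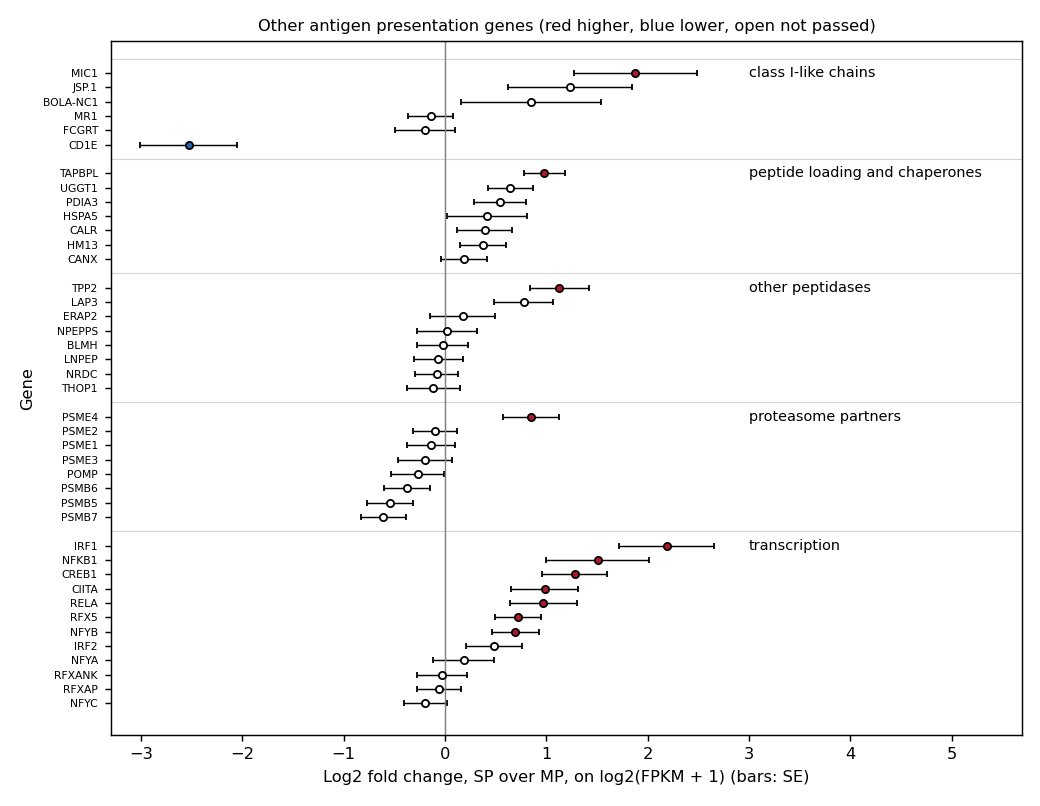
Log2 fold change of SP over MP on the log2(FPKM + 1) scale with SE bars for tested genes of the list, grouped by role, with 1 gene left out that is not reported here; red points were higher and the blue point lower in SP at an adjusted p under 0.05, open points did not pass. The transcription group is led by IRF1 (2.19), and the proteasome partners other than PSME4 lie at or below 0.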

How the data were processed

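The authors deposited 1 table of FPKM per library, as the file headers say; no scaling across libraries is stated. Per the submitters' processing notes, cutadapt 2.5, HISAT2 2.1.0 and build ARS-UCD1.2 were used; per the labels' protocols the library kit was stranded. The counting tool and its strand setting: not given in the sources used here. In the file headers micro stands in the MP column names and not in those of SP, with no explanation, so any handling it marks cannot be told apart from the population.

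A gene's FPKM also moves with the rest of its library. The row without a gene name (0.185% to 1.91% of FPKM) was left out. Depth was estimated from ratios of the lowest values. Genes at 1 FPKM or above in 3 or more libraries were tested on log2(FPKM + 1), a scale that understates the change of low genes, with limma 3.58.1 in R 4.3.3 (eBayes with trend, two-sided, Benjamini-Hochberg over all 12127 genes, threshold 0.05). Groups and replicate numbers came from the titles. Members and lists were chosen with earlier results of these data known. Named were all members, tested genes of the list of 46 (by role, 1 not analysed here and 1 counted but not reported here) and the 5 genes nearest to NLRC5 in pattern; neighbours sharing a locus or the class I name were named after their values were seen. Alternatives were another pseudocount (0.1), other filters, scalings, a replicate block, leaving out each library, and summed BOLA rows.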

Additional observations from a re-analysis of the deposited data

How the results depend on the processing

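With 14 alternatives over 54 genes, 740 values resulted, of which 653 kept their side of the threshold, 79 lost a call, 8 gained one and 0 called genes changed direction. The number of members called higher was 4; it was 1 with no filter on low values and from 1 to 5 without single libraries. The number of other pathway genes called higher was 12; it was 4 with no filter, 7 at a mean of at least 5 FPKM, and from 2 to 8 without single libraries. The number called lower was 1 and became 0 at a mean of at least 5 FPKM and from 0 to 1 without single libraries, since CD1E was not among the genes tested at that mean or without any 1 of the MP libraries. The calls over all genes numbered 4759 and from 2421 (without MP replicate 2) to 4455 (without MP replicate 3) without single libraries; fewer samples were then tested. Apart from these, counts stayed within 1.5 times. Rescaling FPKM to the same sum in each library shifted the median of all genes to 0.19 and that of the members to 1.15. With the replicate number as a block, 3 members and 9 other pathway genes were called higher, and 4793 genes in all were called either way. Same-numbered SP and MP libraries also carry the same stroma number in the column names, and whether it marks a shared uterus is not given. They had correlations of deviations of 0.10, 0.53 and −0.09, and SP replicates 1 and 3 correlated best with another number. The rule set for pairing was thus not met, and the main comparison has no block. These correlations rest on 3 libraries per population and cannot decide whether the libraries are paired. The ratios of B2M to BOLA row 3 and of ERAP1 to ERAP2 set replicate 2 of each population apart from the others. Depth, as roughly estimated, was lower in every SP library, though SP replicate 3 (1.84 relative to SP replicate 1) came near MP replicate 3 (2.01). It limits statements on genes near 0 in SP such as CD1E.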
